A study of Homo sapiens with 12 samples.

Results

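The 10 genes CCND1, CCND2, CCND3, CCNE1, CCNE2, CDK2, CDK4, CDK6, RB1 and E2F1 encode the core switch that takes a cell from G1 into S phase. They were read on every probe set of the array that the platform annotation gives to exactly 1 of these symbols, which selected 27 of 54675 probe sets and 10 of 19775 genes. The cells were ML-2, a human acute myeloid leukaemia line, and each of 4 groups held 3 arrays. Combination cells received 2 µM SGI-110 for 24 h and then 5 µM ASTX660 for 9 h. SGI-110 cells received 2 µM SGI-110, with a labelled exposure of 33 h, and no ASTX660. ASTX660 cells received solvent and then 5 µM ASTX660 for 9 h, and solvent cells received solvent in both steps. SGI-110, also called guadecitabine, is a hypomethylating drug from which decitabine is released, and ASTX660 antagonises inhibitor of apoptosis proteins. The labels do not say whether SGI-110 stayed on during the last 9 h of the combination, so the combination and SGI-110 groups may differ in SGI-110 exposure as well. The titles number the arrays 2, 9 and 13 in each group, and the series design states 3 independent experiments of a single cell line.

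D cyclins, made in response to growth signals, bind CDK4 and CDK6, and these kinases phosphorylate the retinoblastoma protein encoded by RB1. Phosphorylated RB1 releases E2F factors such as E2F1, which switch on genes of S phase, the E cyclins among them. E cyclins bind CDK2, which phosphorylates RB1 further and commits the cell to replication, while the CIP/KIP and INK4 inhibitors hold these kinases back. Normal blood cells of many lineages rely on CCND2 and CCND3 together with CDK6. All measurements here are of RNA, and none of them reads kinase activity, protein level or the phosphorylation of RB1.

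Decitabine blocks DNA methyltransferases, so that methylation of CpG sites is lost as treated cells replicate their DNA, and the CpG content of the members' start sites is given first. RefSeq start windows of GRCh38.p14, reaching from 250 bases before to 50 bases after a gene's start, were used for 6 of the 10 genes, 9 windows in all. CCND1, CCND2, CCNE2 and CDK2 had no window used here, which does not show that none exists. The start sequences of these genes were not read. The median window of 35116 held 14 CpG sites, with quartiles at 4 and 28. CCND3, which changed most among the called members, has 3 annotated starts, shown because their CpG counts differ: 29, 37 and 3. The windows of CDK4 and E2F1 are shown for the letters they hold. CDK4 held CACGTG, an E-box that MYC and related factors can bind, 3 times, and 7.26% of all windows held it at least once. E2F1 held 2 matches to an E2F site written as TTTCCCGC, TTTCGCGC, TTTGCCGC or TTTGGCGC, and 3.31% of all windows held at least 1. Both strands were searched, the matches are in capitals and none overlaps another, and a match describes letters and not a bound site. The 5 windows, each 300 bases on the minus strand and written 5′ to 3′, are these.
CCND3 start with 29 CpG (chr6:42048639-42048938): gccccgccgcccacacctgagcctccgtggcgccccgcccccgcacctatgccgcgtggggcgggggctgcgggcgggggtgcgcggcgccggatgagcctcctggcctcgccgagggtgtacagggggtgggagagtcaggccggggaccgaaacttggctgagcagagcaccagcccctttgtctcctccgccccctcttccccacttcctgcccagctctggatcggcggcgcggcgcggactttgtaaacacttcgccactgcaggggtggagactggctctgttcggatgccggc
CCND3 start with 37 CpG (chr6:41941759-41942058): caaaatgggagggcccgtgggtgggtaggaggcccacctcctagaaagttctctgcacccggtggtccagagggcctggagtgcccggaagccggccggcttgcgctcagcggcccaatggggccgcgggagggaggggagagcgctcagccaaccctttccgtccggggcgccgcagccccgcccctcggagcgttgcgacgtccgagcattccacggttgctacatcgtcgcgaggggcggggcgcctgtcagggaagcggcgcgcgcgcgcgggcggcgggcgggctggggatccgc
CCND3 start with 3 CpG (chr6:41939156-41939455): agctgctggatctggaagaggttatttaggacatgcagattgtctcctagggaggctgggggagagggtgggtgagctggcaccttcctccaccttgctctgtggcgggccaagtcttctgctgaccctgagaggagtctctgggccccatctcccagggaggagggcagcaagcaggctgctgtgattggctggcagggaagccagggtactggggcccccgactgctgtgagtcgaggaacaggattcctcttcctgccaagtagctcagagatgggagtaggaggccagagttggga
CDK4 with 23 CpG (chr12:57752261-57752560): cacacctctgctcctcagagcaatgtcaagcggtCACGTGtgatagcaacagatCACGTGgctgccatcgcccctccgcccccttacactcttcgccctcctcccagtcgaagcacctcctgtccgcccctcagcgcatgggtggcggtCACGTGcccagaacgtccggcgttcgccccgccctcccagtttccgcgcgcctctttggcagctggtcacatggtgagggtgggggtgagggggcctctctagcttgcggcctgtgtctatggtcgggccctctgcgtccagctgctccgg
E2F1 with 46 CpG (chr20:33686336-33686635): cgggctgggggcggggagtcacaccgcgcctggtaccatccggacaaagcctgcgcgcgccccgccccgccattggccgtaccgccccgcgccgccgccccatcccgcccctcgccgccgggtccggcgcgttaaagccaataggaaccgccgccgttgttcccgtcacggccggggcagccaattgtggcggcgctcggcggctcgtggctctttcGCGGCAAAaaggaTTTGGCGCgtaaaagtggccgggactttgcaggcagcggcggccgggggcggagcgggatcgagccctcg

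The other windows held 37 and 29 CpG for CDK6, 47 for CCNE1 and 0 for the only RB1 window of the table, at an annotated start that need not be the main one. CDK6 held CACGTG 1 time, in the window with 37 CpG, and neither motif was found in the CCNE1 or RB1 windows. The arrays measured RNA only, and methylation at these sites was not measured.

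Values are RMA log2 intensities as deposited, in which 1 unit is a doubling of array signal. A probe set was tested when it exceeded the median of its array in at least 3 arrays, and array medians lay between 4.688 and 4.774. By this rule 18 of the 27 probe sets, covering 8 of the 10 genes, were tested, and the filter removed every probe set of CCND1 and CCND2. Of the 18, 17 exceeded the median in all 12 arrays, and the last, CDK6 231198_at, did so in 10 arrays that included every group, so no member was tested through 1 group alone. Tests used limma over 23660 probe sets with Benjamini-Hochberg adjustment, and an adjusted p under 0.05 is a call. A fold is a ratio of array signal, and levels of different probe sets cannot be set against each other.

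The myeloid markers MPO (13.14 to 13.49) and LYZ (13.02 to 13.45) exceeded the median in every array, while MEIS1 was below it in every array. Of 6 myeloid markers read, 4 exceeded the median in all arrays, ANPEP (3.91 to 4.86) in 2 and 1 in none. Their mean level was 8.37 to 8.40 in combination arrays, 8.37 to 8.43 in SGI-110 arrays, 8.08 to 8.20 in ASTX660 arrays and 8.06 to 8.20 in solvent arrays. PTPRC, which encodes the leukocyte antigen CD45, was higher by 0.60 in arrays with SGI-110 than in arrays without it (limma adjusted p = 0.00106), and LYZ by 0.21 (adjusted p = 0.00189). MPO (−0.07, adjusted p = 0.47) and SPI1 (0.25, adjusted p = 0.0563) were not called, so 2 of the 4 tested myeloid markers rose. Of markers of other cell types, CD2, MS4A1, KLF1, EPCAM and KRT19 were below the median in every array. CD79A, CD3E, COL1A1 and KRT8 were above it in all 12, ALAS2 in 11, DCN in 9, CD3D in 8 and COL1A2 in 1. Mean levels of the epithelial list were 4.19 to 4.50 in combination arrays, 4.23 to 4.62 in SGI-110 arrays, 4.04 to 4.26 in ASTX660 arrays and 4.17 to 4.32 in solvent arrays, and KRT8 was higher by 0.58 with SGI-110 (adjusted p = 0.00475). The part of these markers in the results below was not tested. ASTX660 array 2 was the lowest of the 12 arrays in 8 of the 18 tested member probe sets (44.4%), against 12.7% of all probe sets tested.

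Among the D cyclins only the CCND3 probe set 201700_at gave a testable signal, and it rose with SGI-110. CCND3 partners CDK4 and CDK6 and is the D cyclin that developing lymphoid and myeloid cells use widely. It read 10.37, 10.19 and 10.50 in combination arrays 2, 9 and 13, and 10.42, 10.35 and 10.59 in the SGI-110 arrays in the same order. The ASTX660 arrays read 9.89, 9.73 and 10.00, and the solvent arrays 9.87, 9.75 and 10.00. All 6 arrays with SGI-110 lay above all 6 without it, and in each of the 4 groups array 13 was the highest and array 9 the lowest.

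Group means of CCND3 were 10.35 ± 0.16 for the combination, 10.45 ± 0.13 for SGI-110, 9.87 ± 0.13 for ASTX660 and 9.87 ± 0.12 for solvent (SD, n = 3 each). The rise over solvent was 0.58 with SGI-110 (SE 0.0926, 1.49-fold, limma adjusted p = 0.00126) and 0.48 with the combination (SE 0.0926, 1.4-fold, adjusted p = 0.00378). These comparisons share their solvent arrays. With the array number as a replicate block their limma adjusted p was 3.2e-08 for SGI-110 and 2.98e-07 for the combination. Over arrays with and without SGI-110, meaning the average of SGI-110 against solvent and combination against ASTX660, the difference was 0.53 (SE 0.0655, 1.44-fold, adjusted p = 5.7e-05). Within a number, the SGI-110 array exceeded the solvent array by 0.55 to 0.60 and the combination array exceeded the ASTX660 array by 0.46 to 0.50. The groups with SGI-110 stood above the groups without it, and neighbours within either pair were not told apart by the test: combination minus SGI-110 was −0.10 (95% interval −0.30 to 0.10), at −0.05, −0.16 and −0.09 within numbers 2, 9 and 13, and ASTX660 minus solvent was 0.00 (−0.20 to 0.20). In RNA from whole cultures, a change of level per cell and a change in the share of cells in a phase of the cycle cannot be told apart. The call remained under every alternative run on this probe set, while averaging it with the dim CCND3 probe set 1562028_at gave 0.11 for the combination against solvent (adjusted p = 0.153). The gene call stayed under every alternative, averaging included, for SGI-110 against solvent (0.28 to 0.64) and the combination against ASTX660 (0.24 to 0.56). It also stayed over arrays with and without SGI-110 (0.26 to 0.57). With the intensity filter dropped, 1562028_at differed from solvent by −0.26 in combination arrays and −0.26 in ASTX660 arrays, and was not called.

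**Figure D1:**
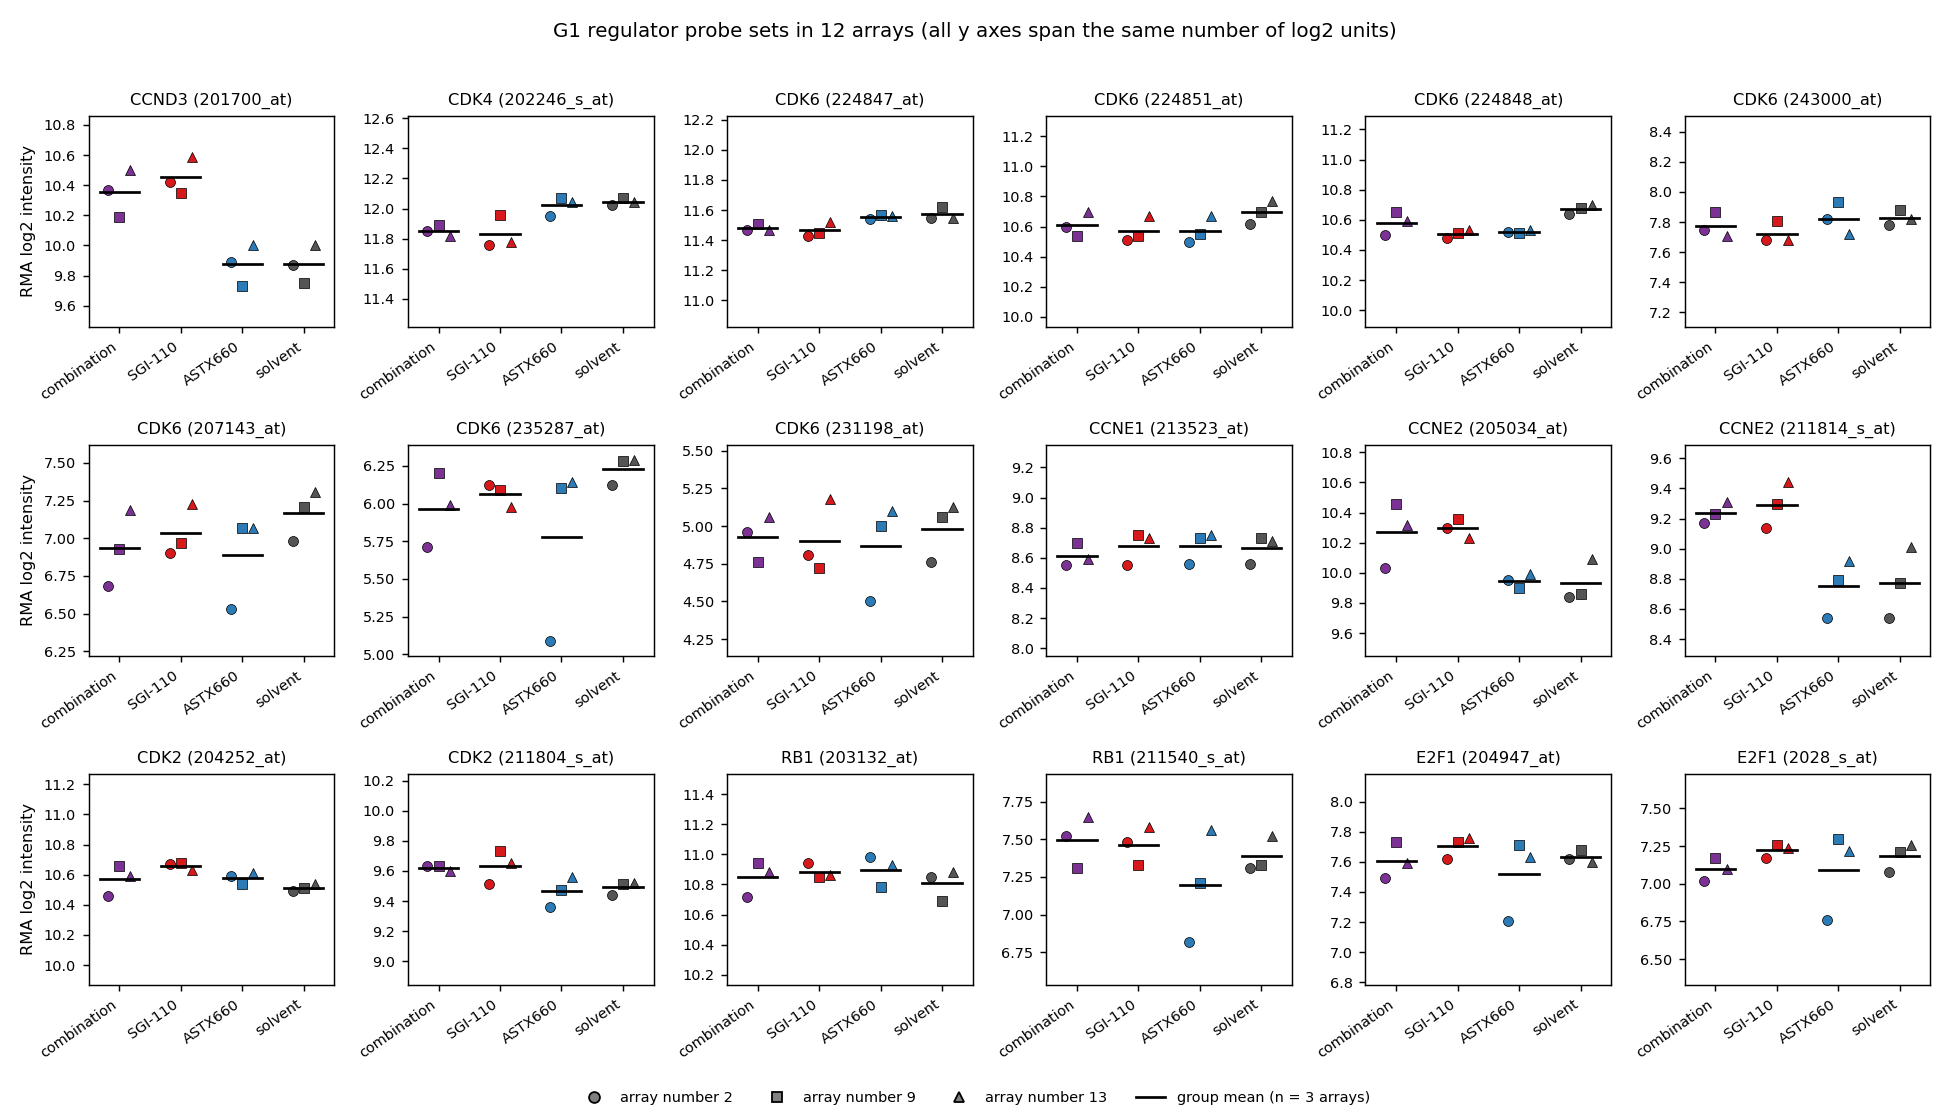
RMA log2 intensity (y axis, the same span in every panel) of the 18 tested probe sets in the combination, SGI-110, ASTX660 and solvent groups. Points are single arrays with a shape for each number, bars are group means (n = 3), and in the panels of CCND3 and CCNE2 211814_s_at every array with SGI-110 lies above every array without it.

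CCND1 and CCND2, the other D cyclins, read as background. The 2 CCND1 probe sets lay between 3.25 and 3.83 and the 4 CCND2 probe sets between 2.69 and 4.34 over all 12 arrays. None of these 6 probe sets exceeded the array median in any array, in any group. CCND1 208711_s_at averaged 3.57 ± 0.06 in combination arrays, 3.66 ± 0.18 in SGI-110 arrays, 3.41 ± 0.09 in ASTX660 arrays and 3.50 ± 0.04 in solvent arrays. Its combination and SGI-110 arrays overlapped the solvent arrays, and both lay above the ASTX660 arrays. CCND2 200953_s_at averaged 3.93 ± 0.10, 3.92 ± 0.11, 3.61 ± 0.20 and 3.75 ± 0.17 in the same order (SD, n = 3 each). With the intensity filter dropped, none of the 9 dim member probe sets was called in any of 8 comparisons, and the smallest adjusted p was 0.0521, for CCND2 200953_s_at over arrays with and without SGI-110 (0.25, 95% interval 0.08 to 0.42). At this brightness the arrays could not show whether either gene differed between groups. The remaining dim probe sets were CCND3 1562028_at (3.83 to 4.29), CCNE1 242105_at (3.87 to 4.46) and CDK2 211803_at (4.38 to 4.73).

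**Figure D2:**
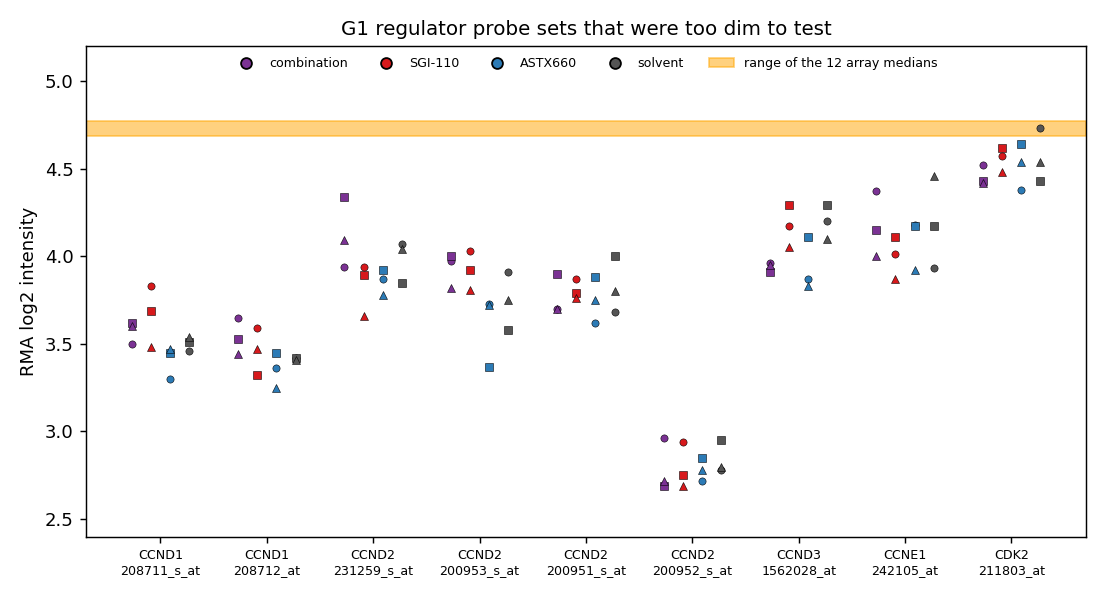
RMA log2 intensity (y axis) of the 9 member probe sets that were not tested, with a point for each array coloured by group and shaped by number. The band is the range of the 12 array medians, 4.688 to 4.774, and the CCND1 and CCND2 points, 2.69 to 4.34, all lie below it.

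CDK4, a catalytic partner of D cyclins, fell with SGI-110 by a small amount. Its only probe set, 202246_s_at, read 11.85, 11.89 and 11.82 in combination arrays 2, 9 and 13 and 11.76, 11.96 and 11.78 in SGI-110 arrays. The readings were 11.95, 12.07 and 12.04 in ASTX660 arrays and 12.02, 12.07 and 12.04 in solvent arrays. The combination and SGI-110 arrays each lay wholly below the solvent arrays, but SGI-110 array 9 lay above ASTX660 array 2. CDK4 averaged 11.85 ± 0.03 in combination arrays, 11.84 ± 0.11 in SGI-110 arrays, 12.02 ± 0.06 in ASTX660 arrays and 12.04 ± 0.03 in solvent arrays (SD, n = 3 each). The change against solvent was −0.21 with SGI-110 (SE 0.0499, 1.15-fold lower, limma adjusted p = 0.0159) and −0.19 with the combination (SE 0.0499, 1.14-fold lower, adjusted p = 0.0213).

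Over arrays with and without SGI-110 the CDK4 difference was −0.19 (SE 0.0353, adjusted p = 0.00139), and this call remained under every alternative, with adjusted p between 1.63e-05 and 0.0111. The calls against solvent had adjusted p = 0.000442 for SGI-110 and 0.000836 for the combination with the array number as a replicate block, and were lost when some single arrays were left out. For SGI-110 the call was lost without SGI-110 array 2 (−0.17, adjusted p = 0.0752), SGI-110 array 13 (−0.18, 0.0695) or solvent array 9 (−0.19, 0.0667), and without the intensity trend (−0.21, 0.0688). For the combination it was lost without combination array 2 (−0.19, adjusted p = 0.06) or 13 (−0.17, 0.0757), or solvent array 9 (−0.17, 0.0839) or 13 (−0.19, 0.0507), and also under median centring (−0.17, 0.0506) or without the intensity trend (−0.19, 0.0782). ASTX660 minus solvent was −0.02 (95% interval −0.13 to 0.09), and combination minus SGI-110 was 0.02 (−0.09 to 0.12).

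CDK6, the other kinase of the D cyclins, had 7 tested probe sets with small changes. All 7 were lower on average than in solvent arrays, by changes of −0.26 to −0.05 in combination arrays, −0.17 to −0.08 in SGI-110 arrays and −0.45 to −0.01 in ASTX660 arrays, and of these values 1 was called. The comparisons share their solvent arrays, and under median centring 2 of the ASTX660 values turned positive. The brightest, 224847_at, read 11.47, 11.51 and 11.47 in combination arrays 2, 9 and 13 and 11.43, 11.45 and 11.52 in SGI-110 arrays. In ASTX660 arrays it read 11.54, 11.57 and 11.56, and in solvent arrays 11.55, 11.62 and 11.55. All 6 arrays with SGI-110 lay below all 6 without it, by a margin of hundredths of a log2 unit. The difference over arrays with and without SGI-110 was −0.09 (SE 0.0263, 1.06-fold lower, limma adjusted p = 0.0233), while SGI-110 against solvent (−0.10, adjusted p = 0.0935) and the combination against solvent (−0.09, adjusted p = 0.128) did not pass. The call was lost without combination array 13 (−0.08, adjusted p = 0.0534), SGI-110 array 2 (−0.08, 0.0553), SGI-110 array 9 (−0.08, 0.0567) or solvent array 9 (−0.08, 0.0646), and also after quantile normalization (−0.05, 0.201) or without the intensity trend (−0.09, 0.106). Under the centring on the features tested, chosen after seeing the data, 224847_at was called for SGI-110 against solvent (−0.14, adjusted p = 0.0414), and 224847_at (−0.16, 0.0217) and 224848_at (−0.16, 0.0232) for the combination against solvent.

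The CDK6 probe set 224848_at showed another pattern, with solvent above every single-agent array. It read 10.50, 10.65 and 10.59 in combination arrays 2, 9 and 13 and 10.48, 10.51 and 10.53 in SGI-110 arrays. ASTX660 arrays read 10.52, 10.51 and 10.53, and solvent arrays 10.64, 10.68 and 10.70. The SGI-110 and ASTX660 arrays lay below the solvent arrays, and the combination arrays overlapped all 3 other groups. SGI-110 minus solvent was −0.17 (SE 0.0454, adjusted p = 0.0268), and the call was lost on leaving out any 1 of the SGI-110 or solvent arrays (−0.18 to −0.15, adjusted p 0.052 to 0.101), under median centring (−0.17, 0.0615) and without the intensity trend (−0.17, 0.0786). ASTX660 minus solvent was −0.16, with an unadjusted p of 0.00413 that became 0.674 over all probe sets in limma. The interaction, which subtracts both single-agent changes from that of the combination, was 0.23 (95% interval 0.09 to 0.37), unadjusted p = 0.00296 and adjusted p = 1.

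The other 5 CDK6 probe sets passed no comparison without the replicate block described below. 224851_at averaged 10.61 ± 0.08 in combination arrays, 10.57 ± 0.09 in SGI-110 arrays, 10.57 ± 0.09 in ASTX660 arrays and 10.69 ± 0.07 in solvent arrays (SD, n = 3 each). 243000_at ranged from 7.68 to 7.93, 207143_at from 6.53 to 7.31, 235287_at from 5.09 to 6.29 and 231198_at from 4.50 to 5.18. The low ends of 207143_at, 235287_at and 231198_at were all ASTX660 array 2. For 235287_at that array read 5.09 and the other ASTX660 arrays 6.10 and 6.14, and solvent arrays read 6.12 to 6.29. ASTX660 minus solvent was −0.45 for this probe set with that array and −0.11 without it, and neither was called.

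**Figure D3:**
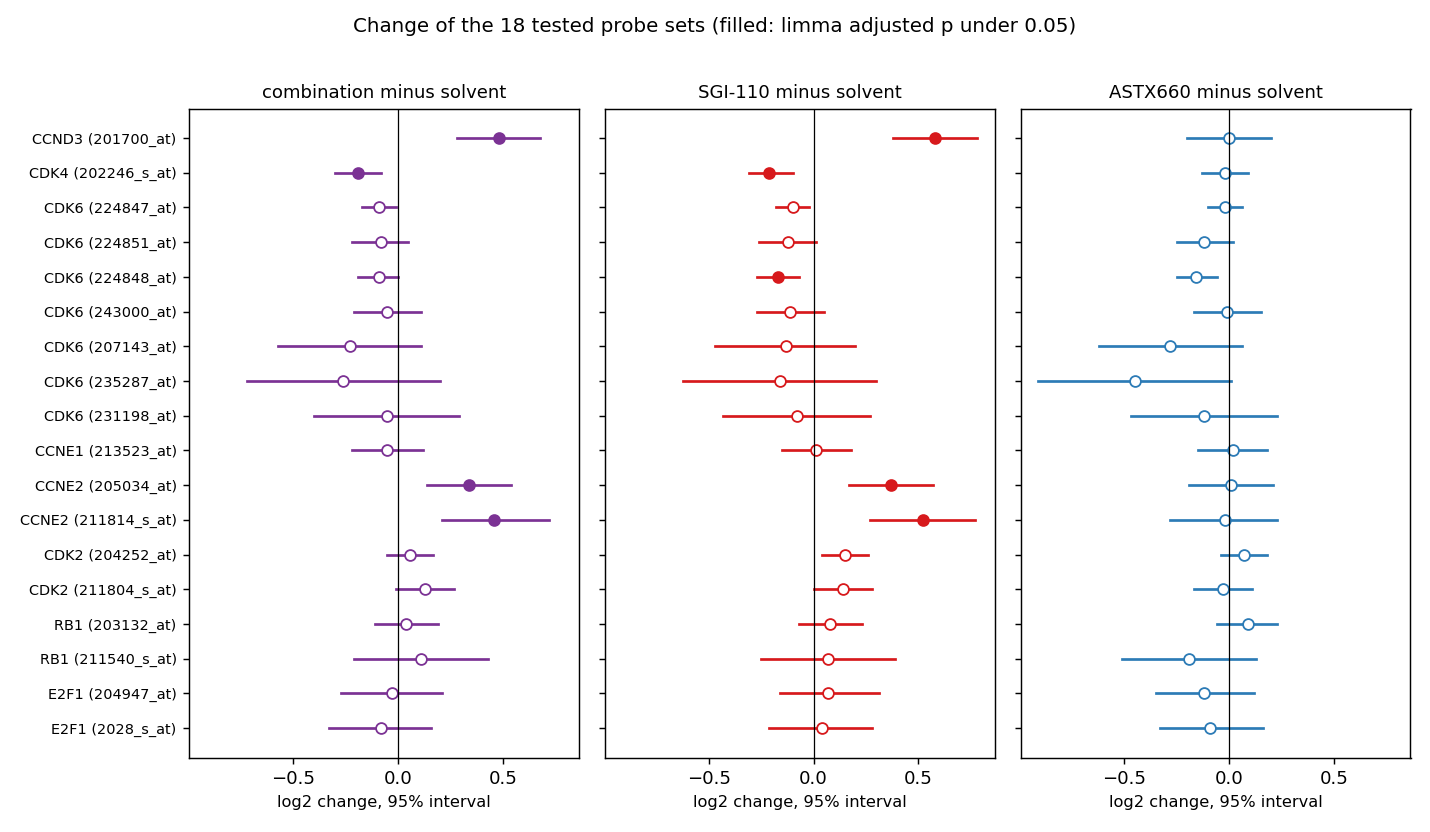
Log2 change with its 95% interval (x axis) of the 18 tested probe sets, for combination minus solvent, SGI-110 minus solvent and ASTX660 minus solvent. Filled points passed limma at an adjusted p under 0.05: CCND3 and both CCNE2 probe sets above 0, CDK4 below 0 and, for SGI-110 alone, CDK6 224848_at below 0, with none in the ASTX660 panel.

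Of the E cyclins, CCNE2 rose with SGI-110 on both of its probe sets, and CCNE1 did not pass any test. Both genes encode activators of CDK2 at the start of S phase and are known targets of E2F factors. CCNE2 211814_s_at read 9.17, 9.23 and 9.31 in combination arrays 2, 9 and 13 and 9.14, 9.30 and 9.44 in SGI-110 arrays, against 8.54, 8.79 and 8.92 in ASTX660 arrays and 8.54, 8.77 and 9.01 in solvent arrays. All 6 arrays with SGI-110 lay above all 6 without it, and in each group array 13 was the highest and array 2 the lowest. Group means were 9.24 ± 0.07, 9.29 ± 0.15, 8.75 ± 0.20 and 8.77 ± 0.24 for combination, SGI-110, ASTX660 and solvent (SD, n = 3 each). SGI-110 minus solvent was 0.52 (SE 0.118, 1.44-fold, limma adjusted p = 0.0112), and the combination minus solvent was 0.46 (SE 0.118, 1.38-fold, adjusted p = 0.0177).

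The second CCNE2 probe set, 205034_at, read 10.03, 10.46 and 10.32 in combination arrays and 10.30, 10.36 and 10.23 in SGI-110 arrays, with numbers in the same order. ASTX660 arrays read 9.95, 9.90 and 9.99, and solvent arrays 9.84, 9.86 and 10.09. SGI-110 arrays lay above all arrays without SGI-110, while combination array 2 lay below solvent array 13. SGI-110 minus solvent was 0.37 (SE 0.0928, 1.29-fold, adjusted p = 0.02), and the combination minus solvent was 0.34 (SE 0.0928, 1.27-fold, adjusted p = 0.0258). Over arrays with and without SGI-110, 211814_s_at differed by 0.50 (SE 0.0832, adjusted p = 0.000549) and 205034_at by 0.35 (SE 0.0656, adjusted p = 0.00148), and both calls remained under every alternative.

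The calls of CCNE2 against solvent were also lost when some single arrays were left out, and with the replicate block their adjusted p was between 8.6e-06 and 0.00358. For SGI-110, 211814_s_at was lost without SGI-110 array 13 (0.45, adjusted p = 0.0542) or solvent array 2 (0.40, 0.0529), and 205034_at without SGI-110 array 2 or 9 or solvent array 2 or 9 (0.32 to 0.36, adjusted p 0.0648 to 0.0841). For the combination, 211814_s_at was lost without combination array 13 (0.43, adjusted p = 0.0646), solvent array 2 (0.35, 0.0834) or solvent array 9 (0.46, 0.0563). 205034_at was lost there without combination array 9 or 13 or solvent array 2 or 9 (0.25 to 0.31, adjusted p 0.0844 to 0.101), and also with only the 2 groups compared in the fit (0.34, 0.0614). ASTX660 minus solvent was −0.02 (95% interval −0.28 to 0.23) for 211814_s_at and 0.01 (−0.19 to 0.21) for 205034_at.

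CCNE1 213523_at read 8.55, 8.70 and 8.59 in combination arrays, 8.55, 8.75 and 8.73 in SGI-110 arrays, 8.56, 8.73 and 8.75 in ASTX660 arrays and 8.56, 8.73 and 8.71 in solvent arrays. The 4 groups overlapped, and array 2 was the lowest in each. The difference over arrays with and without SGI-110 was −0.03 (95% interval −0.15 to 0.09, limma adjusted p = 0.766), an interval that does not reach the rise of either CCNE2 probe set. No test of CCNE1 against CCNE2 was run.

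CDK2, the kinase of the E cyclins, had 2 tested probe sets. For 211804_s_at the combination arrays read 9.63, 9.63 and 9.60, the SGI-110 arrays 9.51, 9.73 and 9.65, the ASTX660 arrays 9.36, 9.47 and 9.56, and the solvent arrays 9.44, 9.51 and 9.52. The combination arrays lay above every array without SGI-110, and the SGI-110 arrays overlapped them through array 2. This probe set was higher with SGI-110 than without it by 0.15 (SE 0.0466, 1.11-fold, limma adjusted p = 0.0316). The call was lost on leaving out any 1 of combination arrays 2 and 9, SGI-110 arrays 9 and 13, ASTX660 arrays 2 and 9, and solvent arrays 2 and 9 (0.12 to 0.15, adjusted p 0.0516 to 0.086), and also under median centring (0.14, 0.0513), without the intensity trend (0.15, 0.0509) and when arrays were centred on the features tested (0.13, 0.067), a setting chosen after seeing the data.

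CDK2 204252_at read 10.46, 10.66 and 10.59 in combination arrays, 10.67, 10.68 and 10.63 in SGI-110 arrays, 10.59, 10.54 and 10.61 in ASTX660 arrays and 10.49, 10.51 and 10.54 in solvent arrays. The SGI-110 arrays lay above the other single-agent and solvent arrays, and the combination arrays overlapped each of the other groups. SGI-110 minus solvent was 0.15 (SE 0.0505, adjusted p = 0.0733), which became 0.0278 with the array number as a replicate block. It was also called after quantile normalization (0.16, 0.0402), with array weights (0.16, 0.0144) and with only the 2 groups compared in the fit (0.15, 0.0378). Without combination array 2, which does not enter that contrast but does enter the shared variance, the adjusted p was 0.0359. The gene CDK2, read from this probe set, was not called over arrays with and without SGI-110 (0.07, limma adjusted p = 0.178), but was without combination array 2 (0.09, 0.0388), so with all arrays its probe sets fell on different sides of the threshold.

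RB1, the substrate of these kinases, and E2F1, the factor it restrains, passed no test over all arrays without the replicate block. RB1 203132_at averaged 10.85 ± 0.11 in combination arrays, 10.89 ± 0.05 in SGI-110 arrays, 10.89 ± 0.10 in ASTX660 arrays and 10.81 ± 0.10 in solvent arrays (SD, n = 3 each). All 12 arrays lay between 10.69 and 10.98 and the groups overlapped, and the difference over arrays with and without SGI-110 was 0.02 (95% interval −0.09 to 0.12). RB1 211540_s_at ranged from 6.82 in ASTX660 array 2 to 7.65 in combination array 13, with a difference of 0.19 (95% interval −0.04 to 0.41). For this probe set the combination minus ASTX660 was 0.70, 0.10 and 0.10 within numbers 2, 9 and 13. It was called with the replicate block (0.30, limma adjusted p = 0.0444) and without ASTX660 array 13 (0.48, 0.0317), where the difference over arrays with and without SGI-110 was called too (0.28, 0.0335).

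E2F1 204947_at read 7.49, 7.73 and 7.59 in combination arrays, 7.62, 7.73 and 7.76 in SGI-110 arrays, 7.21, 7.71 and 7.63 in ASTX660 arrays and 7.62, 7.68 and 7.60 in solvent arrays. ASTX660 array 2 lay below the other 11 arrays, which overlapped between groups. The difference over arrays with and without SGI-110 was 0.08 (95% interval −0.09 to 0.25, limma adjusted p = 0.513) for 204947_at and 0.02 (−0.15 to 0.20, 0.888) for 2028_s_at. Without ASTX660 array 2, ASTX660 minus solvent was 0.03 for 204947_at, against −0.12 with it, and 0.08 for 2028_s_at, against −0.09 with it. Neither value was called.

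Calls were counted over the set and set beside the share of all probe sets tested. In the combination against solvent 3 of 18 rose and 1 fell (16.7% and 5.56%), where 9.52% of all 23660 probe sets rose and 4.4% fell. SGI-110 against solvent gave 3 rises and 2 falls (16.7% and 11.1%), beside 6.96% and 4.29% of all probe sets. With the array number as a replicate block the SGI-110 count became 4 rises and 4 falls, through CDK2 204252_at and the CDK6 probe sets 224847_at (adjusted p = 0.0379) and 224851_at (adjusted p = 0.0364), while calls over all 23660 probe sets went to 4799, against 2661 without the block. Combination against ASTX660 gave 3 rises and 1 fall, beside 6.61% and 6.48% of all probe sets, and its members are those of the combination against solvent. The replicate block added rises of CDK2 211804_s_at (0.15, limma adjusted p = 0.0472) and RB1 211540_s_at (0.30, 0.0444) to that comparison. There the CDK4 call was lost in 9 of 22 alternatives, CCNE2 205034_at in 6, and 211814_s_at without combination array 13 (0.45, adjusted p = 0.0583) or ASTX660 array 2 (0.38, 0.0552).

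Over arrays with and without SGI-110, 4 of 18 rose and 2 fell (22.2% and 11.1%), where 13.4% of all probe sets rose and 12.5% fell, so the falls were near the background. The rises included both probe sets of CCNE2, and whether their share exceeds the background was not tested. All arrays with SGI-110 lay above all arrays without it for 2 member probe sets and below them for 1, where 7.12% and 6.84% of all probe sets did so. The median change of the 18 was 0.02, against −0.01 over all probe sets tested. With 1 probe set per gene, CCND3 and CCNE2 rose and CDK4 and CDK6 fell among 8 genes, beside 15.8% and 14.1% of 12689 genes. For the combination and for SGI-110 against solvent, and for the combination against ASTX660, the gene calls were CCND3 and CCNE2 higher and CDK4 lower. At gene level 12.1% of all genes rose and 5.85% fell in the combination, 9.5% and 5.9% with SGI-110, and 8.37% and 7.69% in the combination against ASTX660.

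No comparison that adds ASTX660 gave a member call. ASTX660 against solvent called 0 of 18 members and 0% of all probe sets, with 1 member at an unadjusted p under 0.05, CDK6 224848_at. Combination against SGI-110 called 0 of 18 and 0% of all, with 0 members at an unadjusted p under 0.05. In limma the interaction called 0 of 18 and 0% of all, with 2 members at an unadjusted p under 0.05, CDK6 224848_at and CDK2 204252_at (−0.16, limma unadjusted p = 0.0367, limma adjusted p = 1). The average of the ASTX660 contrasts likewise called 0 of 18 and 0% of all, with 0 members at an unadjusted p under 0.05. A missed threshold does not show that ASTX660 left these genes alone: for CCND3 the interaction interval was −0.38 to 0.18, and for CCNE2 211814_s_at it was −0.39 to 0.32.

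Other genes of the same pathway were read from 5 lists with 1 probe set per gene. Counts over arrays with and without SGI-110 stand beside 15.8% higher and 14.1% lower among all 12689 genes. Counts for SGI-110 against solvent stand beside 9.5% higher and 5.9% lower. With the replicate block, calls over all genes in that comparison went from 1955 to 3202. All 4 tested CDK inhibitors rose over arrays with and without SGI-110. CDKN1A, which encodes the CDK inhibitor p21, averaged 10.45 ± 0.17 in combination arrays, 10.46 ± 0.18 in SGI-110 arrays, 8.37 ± 0.13 in ASTX660 arrays and 8.13 ± 0.21 in solvent arrays (SD, n = 3 each), a difference of 2.20 (SE 0.0824, limma adjusted p = 7.09e-10). CDKN1C, encoding p57, differed by 1.40 (adjusted p = 0.000199), CDKN2D, encoding the INK4 protein p19, by 0.46 (adjusted p = 0.0212), and CDKN1B, encoding p27, by 0.23 (adjusted p = 0.0173). Against solvent, SGI-110 alone gave 2 rises of 4, CDKN1A and CDKN1C, and 4 of 4 with the replicate block. CDKN2A and CDKN2B were too dim to test, and CDKN2C had no probe set with that symbol alone.

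Among 18 other pocket proteins, E2F factors and DREAM subunits, 3 rose and 1 fell with SGI-110, and 14 did not pass, where 15.8% of all genes rose and 14.1% fell. E2F7, an atypical E2F that represses E2F targets, rose by 0.59 (SE 0.0509, limma adjusted p = 2.11e-06), with means of 10.44 ± 0.12 in combination and 10.43 ± 0.08 in SGI-110 arrays against 9.86 ± 0.09 in ASTX660 and 9.84 ± 0.09 in solvent arrays. Its relative E2F8 rose by 0.26 (adjusted p = 0.0189) and the DREAM subunit LIN37 by 0.27 (adjusted p = 0.00487), while TFDP1, the dimer partner of E2F factors, changed by −0.09 (adjusted p = 0.0058). The list's median was −0.03, against 0.00 over all genes. With SGI-110 alone 2 of the 18 rose and 0 fell against solvent, beside 9.5% and 5.9% of all genes. With the replicate block 4 rose and 0 fell, while calls over all genes went from 1955 to 3202.

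Of 13 other tested cell-cycle cyclins, kinases and activators, 0 rose and 7 fell, with a median of −0.13. CCNB1, a mitotic cyclin, averaged 10.91 ± 0.03 in combination arrays, 10.79 ± 0.04 in SGI-110 arrays, 11.24 ± 0.11 in ASTX660 arrays and 11.21 ± 0.11 in solvent arrays, a difference of −0.38 (SE 0.0428, adjusted p = 1.95e-05). CCNA2, the cyclin that takes over CDK2 in S phase, differed by −0.35 (adjusted p = 0.000435), the mitotic cyclin CCNB2 by −0.32 (adjusted p = 3.29e-06), and MNAT1, an assembly factor of the CDK-activating kinase, by −0.28 (adjusted p = 0.000601). With SGI-110 alone 5 of the 13 fell and 0 rose against solvent, where 5.9% of all genes fell and 9.5% rose.

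Among 10 tested genes of cyclin turnover 1 rose and 2 fell, with a median of −0.05. CUL1, the scaffold of SCF ubiquitin ligases, differed by −0.17 (limma adjusted p = 0.0101), FBXW7, the F-box protein that recognises E cyclins, by −0.19 (adjusted p = 0.0494), and the SCF adaptor SKP1 by 0.07 (adjusted p = 0.0185). FBXO31, an F-box protein known to act on cyclin D1, differed by −0.19 and was not called there (adjusted p = 0.0601). In the combination against ASTX660 it fell by a called −0.35 (adjusted p = 0.0333). It was the 1 fall of these 10 in that comparison, with 0 rises, beside 8.37% of all genes higher and 7.69% lower. SGI-110 alone gave 0 rises and 1 fall of these 10 against solvent, beside 9.5% and 5.9% of all genes. With the replicate block there were 1 rise and 2 falls. Of 26 tested E2F targets of G1/S, 6 rose and 4 fell, with a median of 0.02, where 15.8% of all genes rose and 14.1% fell. TK1, thymidine kinase, rose by 0.16 (adjusted p = 0.00274), RRM2, a ribonucleotide reductase subunit, by 0.10 (0.00359) and TYMS, thymidylate synthase, by 0.10 (0.00441), while DBF4, the activator of the CDC7 kinase, changed by −0.27 (0.000877). For SGI-110 against solvent the replicate block moved the E2F target counts to 6 rises and 4 falls, where 2 rose and 1 fell without it, and calls over all genes went to 3202, against 1955 without it. No gene of the 5 lists was called in ASTX660 against solvent, in the combination against SGI-110 or in the interaction.

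**Figure D4:**
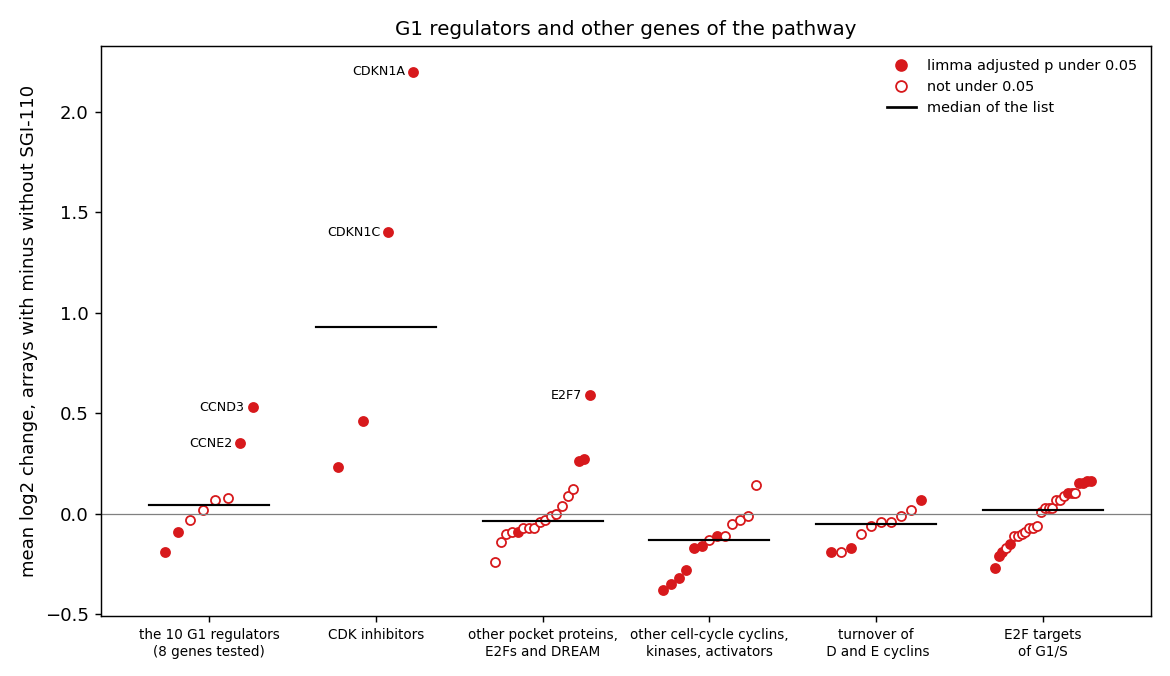
Mean log2 change over arrays with minus without SGI-110 (y axis) for the tested genes of the 10 G1 regulators and of 5 lists of other pathway genes. Each point is a gene, filled at a limma adjusted p under 0.05, and bars are list medians: CDKN1A at 2.20 and CDKN1C at 1.40 lie above all others, and the median is −0.13 for the other cell-cycle cyclins, kinases and activators.

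The genes most alike in pattern were found from the root mean square difference of mean-centred log2 values over the 12 arrays, among 12689 genes, for the 3 members with the smallest adjusted p. For CCND3 they were PPP1R18 (0.0447), SPPL2A (0.068) and GABARAP (0.0712), which differed with SGI-110 by 0.46, 0.55 and 0.49. For CDK4 they were MRPL12 (0.0285), BZW2 (0.0352) and DNAJA3 (0.0356), with differences of −0.21, −0.19 and −0.20. For CCNE2, read from 205034_at, they were PROK2 (0.0782), UNKL (0.0799) and KANSL1-AS1 (0.0831), with differences of 0.35, 0.46 and 0.29. These are descriptions over the same 12 arrays and carry no test.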

How the data were processed

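Total RNA of 12 ML-2 cultures was hybridised to Affymetrix 3′ expression arrays, 1 array per culture. The deposited values are log2 intensities that the authors made with RMA in the affy package, per the submitters' processing notes, with no version given. The sources used here do not say whether all arrays shared 1 RMA run, and RMA compresses ratios of dim probe sets. The table held 54675 probe sets, of which 42898 were in the platform annotation and 41091 had exactly 1 gene symbol. No depth exists for arrays, and the number of arrays limits the precision: the median standard error of a comparison of 2 groups was 0.0915 log2 units.

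Probe sets above the array median in at least 3 arrays were tested with limma 3.58.1 (R 4.3.3), fitting group means to all 12 arrays and moderating variances along an intensity trend. P-values were adjusted by Benjamini-Hochberg within each of 8 comparisons. A fit of 12689 genes used the brightest probe set of each gene on average. The script was tested on simulated data. The main fit did not pair arrays by number. Arrays of 1 number were compared by correlating their deviations from group means, and the correlations ran from 0.057 to 0.572. All 3 numbers exceeded 0.1 for each comparison with solvent and for the combination against SGI-110. For the combination against ASTX660 numbers 9 and 13 gave 0.158 and 0.539, but number 2 gave 0.057, so not all exceeded 0.1 there. Alternatives changed the scaling, the filter, the probe set choice, the variance model, the block, and left out each array.

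All 10 members were named, and from each list up to 4 genes with the smallest adjusted p over arrays with and without SGI-110. The members and lists were chosen with earlier results of these data known.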

Additional observations from a re-analysis of the deposited data

How the results depend on the processing

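There were 23 alternatives listed at the start and 1 chosen after seeing the data, centring on the median of the features tested. Members lost calls more often than they gained them: 99 alternative values fell below the threshold, 27 passed it and 1 reversed. A gene and its brightest probe set were counted as separate values, and comparisons that share arrays were each counted. The reversal was CDK6 over arrays with and without SGI-110, at 0.02 (adjusted p = 0.956) on its most variable probe set. Calls over all probe sets moved too. For the combination against solvent they went from 3295 to 1890 without solvent array 9, 2184 without combination array 13 and 5630 with the replicate block. For SGI-110 against solvent they went from 2661 to 1582 without SGI-110 array 13 and 4799 with the block. For SGI-110 against solvent 3 genes and 5 probe sets were called, which became 5 genes with array weights, 5 genes and 8 probe sets with the replicate block, and 3 probe sets without the intensity trend. For the combination against ASTX660, 3 genes and 4 probe sets became 1 and 2 without the intensity trend. With the block, CDK2 211804_s_at (limma adjusted p = 0.0472) and RB1 211540_s_at (0.0444) joined the probe sets called in the combination against ASTX660. The block changed none of the other counts of members by over 1.5 times. Leaving out 1 array gave 1 to 3 genes and 1 to 4 probe sets for the combination against solvent, 1 to 4 genes and 2 to 6 probe sets for SGI-110 against solvent, and 1 to 3 genes and 1 to 4 probe sets for the combination against ASTX660. For the combination against solvent the count was 1 gene and 1 probe set without combination array 13 or solvent array 9, and 2 probe sets without solvent array 2. For SGI-110 against solvent the count was 1 gene without SGI-110 array 2 or solvent array 9, 2 probe sets without SGI-110 array 2 or 13 or solvent array 2 or 9, and 3 without SGI-110 array 9. For the combination against ASTX660 it was 1 gene without combination array 13 or ASTX660 array 9, 1 probe set without combination array 13, and 2 without ASTX660 array 2 or 9. Over arrays with and without SGI-110 it gave 3 to 5 genes and 4 to 7 probe sets, against 4 and 6. Counts for ASTX660 against solvent, the combination against SGI-110, the averaged ASTX660 contrasts and the interaction stayed at 0 under every setting run. Of all probe sets called in the combination against solvent 68.4% were higher, against 79.1% after median centring, 53.8% after quantile normalization and 40.1% after centring on the features tested. For SGI-110 against solvent these shares were 61.9%, 62%, 56.3% and 44.8%. Under the added centring CCNE2 lost its gene call in the combination against solvent (0.26, adjusted p = 0.0524) and CDK6 gained one (−0.17, adjusted p = 0.0124). A fit of only the 2 groups compared could not be made for the interaction or the averaged contrasts. The cause of these changes was not tested. With 3 arrays per group small changes are measured with little precision, and probe sets under the array median show no usable level.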
